A study of Mus musculus with 4 samples.

Results

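The DNA damage repair genes described here are 37 genes named by symbol, out of 28765 genes in the deposited expression table. They were taken by name and not by a cutoff on measured values, though earlier results of these data were known. They fall into 7 groups by role. These are uracil and base excision with single-strand break repair (8 genes), mismatch repair (3), homologous recombination (12) and the Fanconi anaemia pathway (4). The others are the damage checkpoint (5), end joining (4) and nucleotide excision (Ercc5 alone). RNA was sequenced from CD-1 mouse embryos at E9.5, an age of neural tube closure, in 4 libraries: brain and spine from control and from NTD embryos, where NTD stands for neural tube defects. The mice had been on feed low in folate for over 8 weeks, and defects were induced with 1.5 mg/kg of MTX, given into the abdomen of the mother on E7.5. MTX is the usual abbreviation of methotrexate, an antifolate that blocks dihydrofolate reductase. The labels give the same protocol for all 4 libraries and mark the controls only by the word control, so whether control mothers had the low-folate feed or an injection is not known from them. They also do not say how many embryos went into a library or where brain and spine were cut. Each group is 1 library, so no value below has a replicate, and all differences are between libraries.

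Repair genes act in pathways that each handle one kind of lesion. Uracil DNA glycosylases start base excision, which matters when folate is short because thymidylate synthesis depends on folate and uracil is then built into DNA in place of thymine. Breaks and stalled forks that arise from lesions are handled by the ATR and ATM checkpoint kinases, by recombination on the sister chromatid, by the Fanconi anaemia proteins at crosslinks, and by end joining. In the embryonic neural epithelium, which divides fast, many of these genes are expressed with the cell cycle.

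Many genes of S phase and repair carry binding sites of E2F factors, the regulators of entry into S phase, before their transcription start. RefSeq promoters (GRCm38.p6, 250 bases before to 50 after the start) were at hand for 31 of the 37 genes, and were searched on both strands for an E2F element, spelled TTTGGCGC, TTTCCCGC, TTTGCCGC or TTTCGCGC. Such an element was present for 7 of 31 genes (22.6%): Msh6, Brca2, Bard1, Rad51c, Chek2, Clspn and Xrcc6. It was found in 2.26% of all 32851 promoters of the same length, and for 5.03% of the protein-coding genes compared here. None of the 8 E2F elements overlapped one of the other motifs searched. In Brca2, Bard1, Chek2 and Xrcc6 an element lay before the start, and those stretches are shown to let the element be seen in its surroundings. They were picked after expression values were known, since no repair gene differed by a ratio of 5:4 or more (0.32 on the log2 scale) in both tissues. Capitals mark the element, and each stretch reads 5′ to 3′ on the strand of its gene: Brca2 at chr5:150522407-150522506 (plus strand), Chek2 at chr5:110839785-110839884 (plus), Bard1 at chr1:71103147-71103222 (minus) and Xrcc6 at chr15:82016312-82016341 (plus). The first 3 lie outside annotated exons, whereas that of Xrcc6 lies in an exon of another transcript of the gene and is kept to 30 bases.
Brca2: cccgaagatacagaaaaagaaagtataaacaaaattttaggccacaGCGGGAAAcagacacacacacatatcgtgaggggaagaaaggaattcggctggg
Chek2: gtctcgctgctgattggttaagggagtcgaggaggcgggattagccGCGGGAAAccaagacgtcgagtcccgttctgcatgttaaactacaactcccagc
Bard1: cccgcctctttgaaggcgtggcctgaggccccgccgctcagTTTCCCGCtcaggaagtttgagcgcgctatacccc
Xrcc6: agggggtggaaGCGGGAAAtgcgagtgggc
The element begins 168 bases before the start in Brca2, 152 in Chek2, 209 in Bard1 and 46 in Xrcc6. In Brca2, Chek2 and Xrcc6 it reads on the strand of the gene as the reverse complement of TTTCCCGC.

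The other motifs were a CCAAT box (CCAAT), the site of NF-Y, in 21 of 31 genes (67.7%, against 37.4% of all promoters and 43.5% of the protein-coding genes compared), an NRF1 element (GCGCATGC) in 6 (19.4%, against 2.71% and 6.36%) and a CHR element (TTTGAA), found in genes repressed outside the cell cycle, in 2 (6.45%, against 17.9% and 13.9%). Chek1 and Brca1, whose expression is described below, held none of the E2F spellings in this window. A match is a description of these letters only.

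The libraries held between 16272101 and 16911677 reads behind the deposited FPKM (reads scaled to exon length and to the library total), as recovered from the whole-number steps of the values. The brain region markers (10 genes, led by Otx2, Lhx2 and En2) summed to 96.4 FPKM in control brain and 86.8 in NTD brain, against 15.8 and 8.23 in control and NTD spine. The trunk Hox genes (10, led by Hoxb9, Hoxb8 and Hoxb7) summed to 0.288 FPKM in the control and 11.9 in the NTD library of brain, and 167 and 176 in those of spine, with Hoxb7, Hoxb8, Hoxc9 and Hoxa7 at 0 in at least 1 library. Brain and spine thus carried the markers of their labels, and NTD brain held more trunk RNA than control brain. Markers of other cell types also differed between the NTD and control libraries. Early neuron markers summed to 175 FPKM in control brain and 111 in NTD brain, and to 101 and 52.2 in the spine libraries, and 10 of 11 were lower by at least 5:4 in each tissue. Primitive erythroid markers summed to 4482 and 4820 FPKM in control and NTD brain, and to 6987 and 3645 in control and NTD spine, with 8 of 8 lower in NTD spine. Heart markers summed to 47.5 and 197 in brain and 696 and 468 in spine, with 8 of 8 higher by at least 5:4 in NTD brain and 7 of 8 lower in NTD spine. In spine the endoderm and yolk sac markers also differed, with 124 FPKM in control and 40.9 in NTD, and with Afp, Apoa1, Apoa2 and Ttr at 0 in at least 1 of the 4 libraries. Somite and mesoderm markers (8 genes, led by Meox1, Tcf15 and Pax3) summed to 13.7 FPKM in control and 23.8 in NTD brain, and to 119 and 149 in the spine libraries. Of these, 4 were higher by at least 5:4 in NTD brain and 3 in NTD spine, and Msgn1 was at 0 in 1 library. Neural progenitor markers, in whose cells repair genes are known to be active, summed to 415 and 347 FPKM in control and NTD brain and to 299 and 254 in control and NTD spine. The part of these shifts in the repair gene values was not tested. In bulk RNA, fewer cells of a type, less RNA per cell and a different cut of the tissue cannot be told apart.

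All 37 repair genes were expressed in all 4 libraries and passed the minimum of 1 FPKM on the mean, which 12940 genes passed. Their mean levels ran from 1.29 FPKM in Atr to 102 FPKM in Parp1, the poly(ADP-ribose) polymerase that senses single-strand breaks. The median of the 37 was 9.10 FPKM, beside 7.28 FPKM over all genes compared. After Parp1 the highest were Msh6, the mismatch sensor, Rpa2 and Rpa1, which coat single-stranded DNA, and Apex1, the endonuclease that cuts at abasic sites. The lowest after Atr were Wrn, a RecQ helicase, at 1.75 to 2.23 FPKM, and Prkdc, the catalytic subunit of the DNA-dependent protein kinase, at 2.05 to 2.33 FPKM. Each gene kept close to its own level across the libraries. The highest library exceeded the lowest by a median of 1.15-fold, from 1.07-fold in Fancm to 1.65-fold in Smug1, and 30 of 37 genes (81.1%) spanned less than 5:4, beside 49.1% of all genes compared. Control spine was the lowest of the 4 libraries for 20 of the 37 genes and the highest for 2. NTD brain was highest for 14 and NTD spine for 12. The same counts over all genes were not made, so these are not set against a background.

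**Figure D1:**
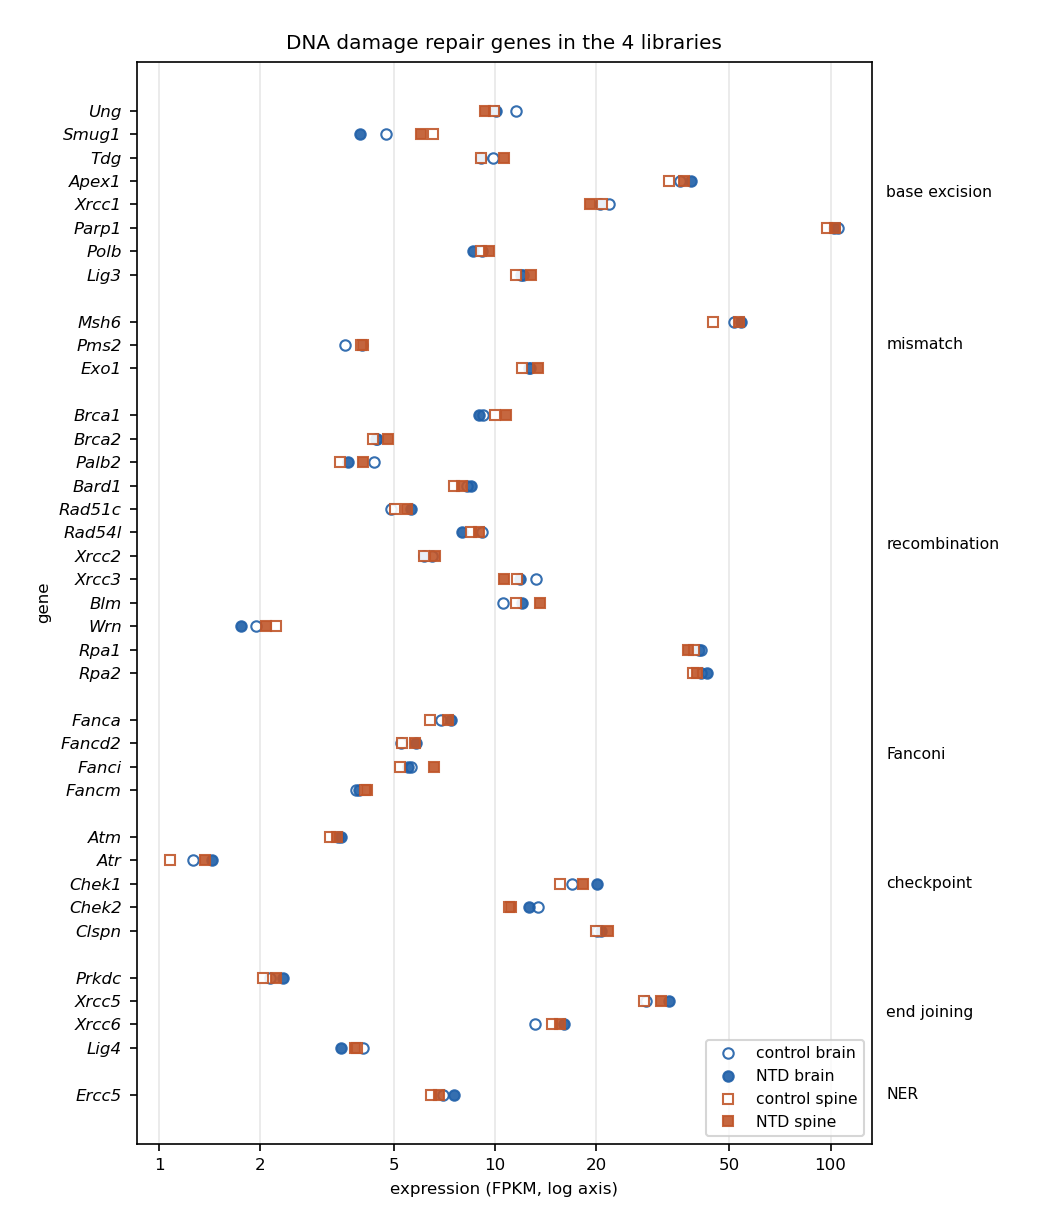
Expression of the 37 repair genes in the 4 libraries. Each row is 1 gene, grouped by pathway, and each point is the FPKM in 1 library on a log axis (blue circles brain, orange squares spine, open control, filled NTD). Genes differ from each other from about 1.29 FPKM (Atr) to 102 FPKM (Parp1) in the mean, while the 4 points of a gene mostly lie within 5:4, with Smug1 spread most.

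The next question was which repair genes differed between NTD and control embryos. No repair gene reached 5:4, or 0.32 in the log2 ratio of (FPKM + 1), in either tissue, while 14.4% of all genes compared did in brain and 15.3% in spine. All 37 are protein-coding. Of the 11199 protein-coding genes compared, 331 were higher and 821 lower by 5:4 in NTD brain, and 248 and 1007 in NTD spine. The count of 0 repair genes rests on the added 1. In reads per library total, Fanci (1.26-fold) and Atr (1.27-fold) were past 5:4 in NTD spine, beside 22.3% of all genes, and none was in NTD brain, beside 21.2%. Brain was mixed and spine leaned to higher levels. In NTD brain 20 of 37 genes were above equality with control brain (54.1%, against 43.6% of all genes) and the median log2 ratio was 0.01, beside -0.03 for all genes. In NTD spine 30 of 37 were above equality (81.1%, against 41.9% of all genes) and the median was 0.08, beside -0.04. The log2 ratios ran from -0.21 (Smug1) to 0.27 (Xrcc6) in brain and from -0.12 (Xrcc3) to 0.28 (Fanci) in spine. Both tissue comparisons rest on libraries of their own and share none.

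**Figure D2:**
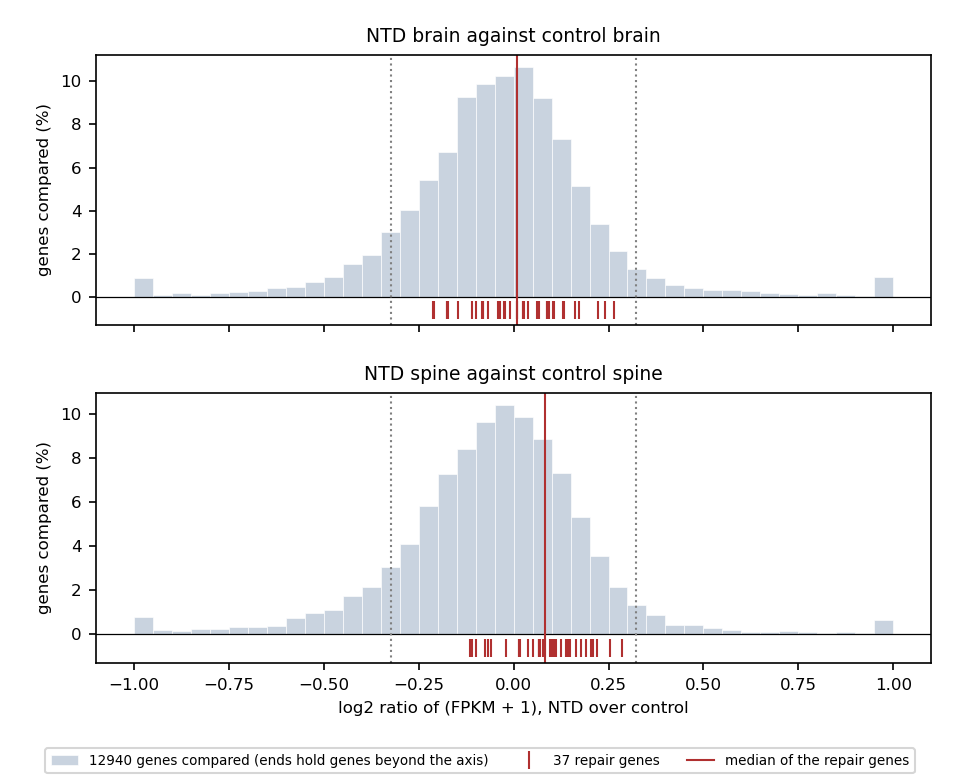
Log2 ratios of (FPKM + 1), NTD over control, in brain (top) and spine (bottom). Bars give the percentage of the 12940 genes compared in each bin, red ticks the 37 repair genes, the red line their median (0.01 in brain, 0.08 in spine) and dotted lines 5:4 either way. No tick lies beyond the dotted lines.

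Reads could be recovered as whole numbers for 36 of the 37 genes (not Xrcc5), between 219 and 9425 per gene and library. They give each fold an exact conditional binomial interval at 95%, which covers counting error within these libraries and no variation between embryos. In NTD brain the interval left out equality for 6 genes that were higher (Msh6, Blm, Fancd2, Atr, Chek1 and Xrcc6, beside 16.1% of all genes) and for 4 that were lower (Ung, Smug1, Palb2 and Rad54l, beside 25.8%). In NTD spine it did so for 15 that were higher (beside 17.2%) and for Xrcc1 alone that was lower (beside 26.6%). The repair genes had a median of 802 reads against 536 over all genes, so their intervals were narrower than those of most genes. The counts in brain also followed the scaling. With libraries brought to the same FPKM sum, 3 brain intervals lay above equality (Blm, Chek1 and Xrcc6, beside 12.1% of all genes) and 9 below (beside 31.6%), and the brain median was -0.02. With median-ratio scaling, 11 lay above (beside 20.4%) and 4 below (beside 21.3%). In spine, equal FPKM sums gave 19 above (beside 23.9%) and 0 below (beside 19.0%). Median-ratio scaling gave 17 above in spine (beside 22.0%) and 0 below (beside 20.9%). Intervals excluded a difference of 1.5-fold for 36 of 36 genes in both tissues, with the highest upper bounds at 1.37-fold (Smug1, brain) and 1.45-fold (Atr, spine). An earlier account of these data had already put these differences under 1.5-fold, and no share over all genes was counted.

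**Figure D3:**
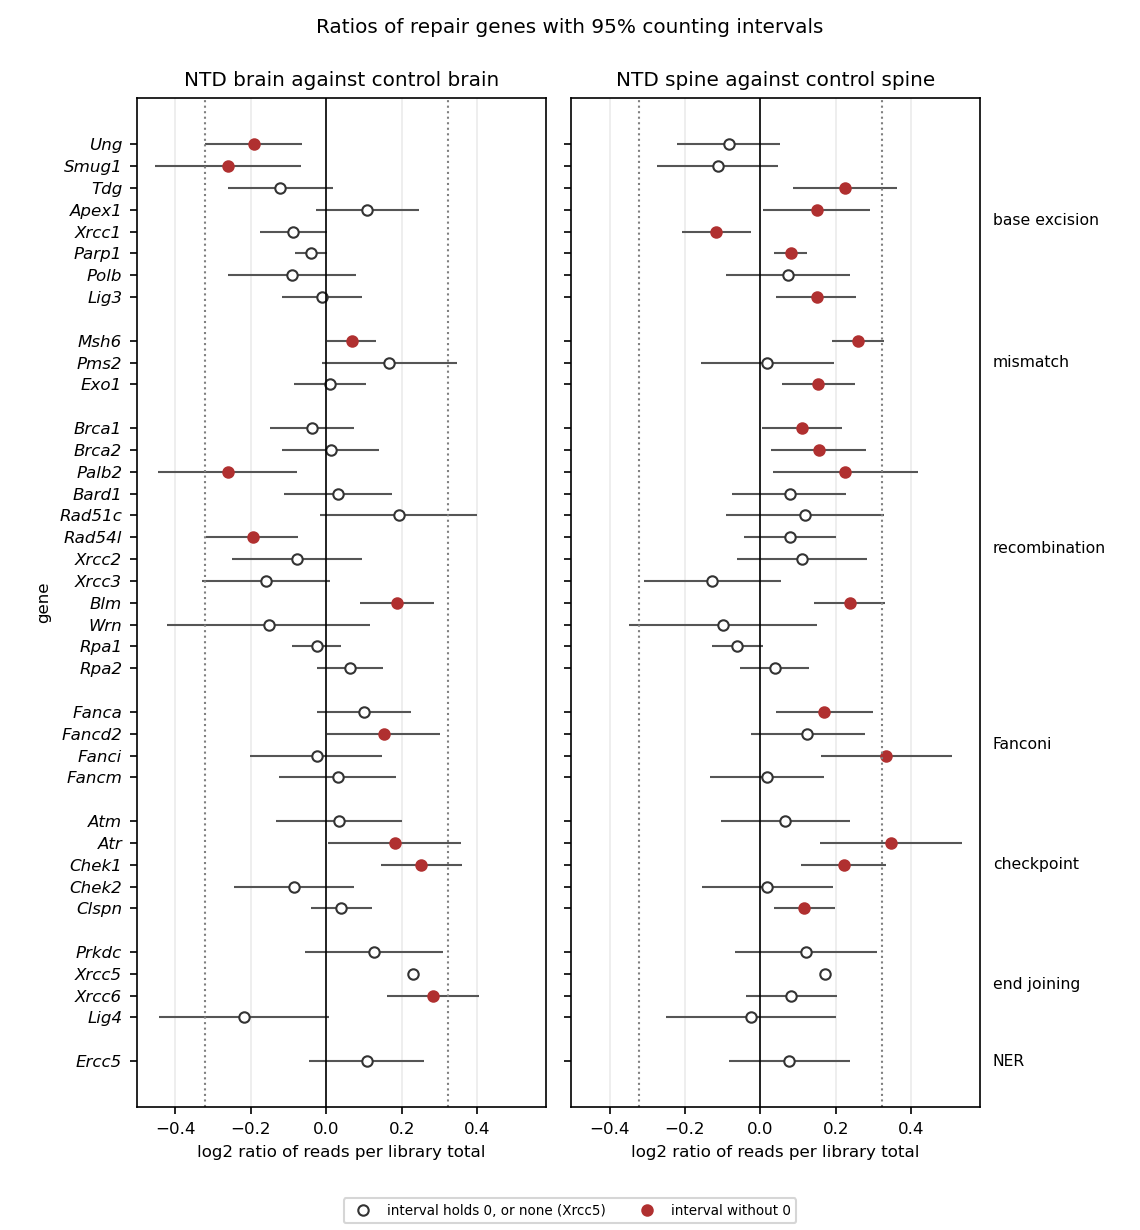
Log2 ratios of reads per library total, NTD over control, for the 37 repair genes in brain (left) and spine (right), with 95% counting intervals as bars. Filled points have an interval without 0 (10 genes in brain, 16 in spine), dotted lines mark 5:4, and Xrcc5 is drawn from FPKM without an interval.

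Across tissues, 20 genes were above equality in both, beside 26.7% of all genes compared, and 7 were below in both (Ung, Smug1, Xrcc1, Xrcc3, Wrn, Rpa1 and Lig4). The other 10 were lower in NTD brain and higher in NTD spine, and 0 showed the opposite. Apart from genes above equality in both tissues, shares of all genes with these patterns were not counted. For Msh6, Blm, Atr and Chek1 the intervals lay above equality in both tissues, beside 7.96% of all genes. Of these, Blm and Chek1 kept both intervals above equality under the other scalings, whereas Msh6 and Atr lost it in brain with equal FPKM sums.

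The base excision genes were the group lowest in NTD brain and mixed in NTD spine. Their median log2 ratio was -0.08 in brain, with Apex1 alone of 8 above equality, and 0.07 in spine, with 5 of 8 above. The brain median stayed below 0 under the other scalings, with 1 or 2 of 8 above, and was -0.04 after adjustment for GC content and length, with 4 of 8 above. The uracil glycosylases Ung and Smug1 were lower in both tissues. Ung, the main enzyme that removes uracil from DNA, stood at 11.6 FPKM in control against 10.1 in NTD brain, with 9.92 in control against 9.36 in NTD spine. Control brain was thus the highest library, and the NTD library was the lower of each pair. The fold was 1.14 lower in brain, with a lower bound of 1.04, and 1.06 lower in spine, where the interval held equality. Smug1, a glycosylase for uracil and oxidised pyrimidines, differed more by tissue than by defect: 4.75 FPKM (control) and 3.97 (NTD) in brain, and 6.53 (control) and 6.03 (NTD) in spine. Both spine libraries lay above both brain libraries. It was 1.20-fold lower in NTD brain (1.05 to 1.37) and 1.08-fold lower in NTD spine, with equality inside the interval.

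Tdg, the glycosylase that also serves active demethylation of DNA, went another way. It stood at 9.87 FPKM in the control and 9.07 in the NTD library of brain, and 9.09 and 10.6 in those of spine, which made NTD spine the highest of the 4. The spine fold was 1.17 higher (1.06 to 1.29), and the brain interval held equality. Downstream of the glycosylases, Apex1 was higher in both tissues, at 35.7 and 38.5 FPKM in control and NTD brain and 33.1 and 36.7 in control and NTD spine, and its interval left out equality in spine (1.11-fold, 1.01 to 1.22). Of its exon bases 61.7% also lie in exons of Pip4p1. Parp1, with 8423 to 9425 reads a library, gives the narrowest interval: 105 and 102 FPKM in control and NTD brain, 97.8 and 103 in control and NTD spine. It was 1.06-fold higher in NTD spine (1.03 to 1.09) and 1.03-fold lower in NTD brain (0.999 to 1.06), where adjustment for GC content and length turned its log2 ratio from -0.04 to 0.07. Lig3, the ligase of single-strand break repair, was 1.11-fold higher in NTD spine (1.03 to 1.19) and 1.01-fold lower in NTD brain with equality inside, at 11.6 to 12.8 FPKM. Xrcc1, the scaffold that binds Lig3 and Parp1, was the 1 repair gene with an interval below equality in NTD spine (1.08-fold lower, 1.02 to 1.16), at 20.9 FPKM in control and 19.3 in NTD. After adjustment for GC content and length its log2 ratios were 0.07 in brain and 0.02 in spine, no longer below 0. Polb, the gap-filling polymerase, ranged from 8.58 to 9.58 FPKM with equality inside both intervals.

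The 3 mismatch repair genes were above equality in both tissues, with a median log2 ratio of 0.07 in brain and 0.14 in spine. With equal FPKM sums 2 of 3 stayed above in brain, Exo1 being the exception. After adjustment for GC content and length the spine median was 0.08, with Pms2 below 0 (-0.05). Msh6, which recognises base mismatches (chr17:87975062-87990892, plus strand), stood at 51.6 FPKM in control against 54.0 in NTD brain, with 44.7 in control against 53.5 in NTD spine. Control spine was the low library and the other 3 lay close together. Against control spine, NTD spine was 1.20-fold higher (1.141 to 1.254), and the brain pair differed by 1.05-fold (1.001 to 1.10). Exo1, the nuclease that removes the mismatched strand, was 1.11-fold higher in NTD spine (1.04 to 1.19) and 1.01-fold in brain, with equality inside. Pms2, part of the endonuclease that nicks that strand, had its low value in control brain (3.58 FPKM, against 3.99 to 4.04 in the others), and both its intervals held equality.

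The 12 recombination genes had a median log2 ratio of -0.03 in NTD brain, with 5 above equality, and of 0.08 in NTD spine, with 9 above. The brain median was 0.00 with median-ratio scaling, so it had no firm direction, and the spine median was 0.05 after adjustment for GC content and length. Blm, the RecQ helicase that dissolves joined recombination intermediates (chr7:80454733-80535119, minus strand), was higher in both tissues. It stood at 10.6 FPKM (control) and 12.1 (NTD) in brain, and 11.6 (control) and 13.7 (NTD) in spine, and in each tissue the NTD library was the higher. The folds were 1.14 in brain (1.06 to 1.22) and 1.18 in spine (1.10 to 1.26). The other RecQ helicase, Wrn, was below equality in both tissues at 1.07 to 1.11-fold lower, and its intervals, on 219 to 275 reads, held equality.

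Palb2, which links Brca1 to Brca2 and is needed to load the recombinase (chr7:122107262-122132985, minus strand), differed in opposite directions. Its levels were 4.38 FPKM in the control and 3.66 in the NTD library of brain, and 3.47 and 4.05 in those of spine. The control libraries held both the highest and the lowest value. It was 1.20-fold lower in NTD brain (1.05 to 1.36) and 1.17-fold higher in NTD spine (1.02 to 1.34), on 414 to 544 reads. Its partners were nearer to equality. Brca1, the ubiquitin ligase that directs breaks to recombination, stood at 9.21 FPKM in control against 8.97 in NTD brain, with 9.98 in control against 10.8 in NTD spine, and was 1.08-fold higher in NTD spine (1.003 to 1.16) and equality inside the brain interval. Brca2, which mediates recombination at breaks, was 1.11-fold higher in NTD spine (1.02 to 1.22) and 1.01-fold in brain, with equality inside, at 4.33 to 4.82 FPKM over all libraries. Bard1, the partner of Brca1 in the ligase, ranged from 7.56 to 8.47 FPKM with both intervals holding equality.

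Among the accessory genes of recombination, Rad54l, a motor that helps strand invasion, was 1.15-fold lower in NTD brain (1.053 to 1.247), at 8.01 FPKM against 9.17 in control, and 1.06-fold higher in spine with equality inside. Of its exon bases 15.4% are shared with Lrrc41. For the recombination genes Rad51c (4.92 to 5.62 FPKM), Xrcc2 (6.16 to 6.65) and Xrcc3 (10.7 to 13.3), equality lay inside both intervals. Rad51c lay above equality in both tissues and Xrcc3 below in both, and Xrcc2 was below in brain and above in spine. The subunits of replication protein A, Rpa1 and Rpa2, had tight intervals, on 1891 to 3884 reads. Rpa1 was 1.02-fold lower in NTD brain (0.973 to 1.07) and 1.04-fold lower in NTD spine (0.996 to 1.09), and Rpa2 was 1.04-fold (0.982 to 1.11) and 1.03-fold higher (0.964 to 1.09).

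The 4 Fanconi anaemia genes had median log2 ratios of 0.06 in brain (3 above equality) and 0.13 in spine (4 above). With equal FPKM sums 2 were above in brain. Fanci, which pairs with Fancd2 in the clamp that marks a crosslink (chr7:79391929-79450264, plus strand), stood at 5.63 FPKM (control) and 5.53 (NTD) in brain, and 5.22 (control) and 6.57 (NTD) in spine. NTD spine stood above the other 3. On reads the spine fold was 1.26 (1.12 to 1.42), past 5:4, the brain fold 1.02 lower with equality inside. Of its exon bases 16.0% are shared with Polg. Its partner Fancd2 was 1.11-fold above control in NTD brain (1.002 to 1.23), where the interval barely left out equality, and 1.09-fold higher in NTD spine with equality inside, at 5.25 to 5.83 FPKM. Fanca, of the core complex, was 1.13-fold higher in NTD spine (1.03 to 1.23) and 1.07-fold in brain with equality inside (log2 ratio 0.09, and 0.24 after adjustment for GC content and length), and 10.5% of its exon bases lie in exons of Zfp276. Fancm, the translocase that brings the core complex to DNA, varied least of all 37 genes, from 3.86 to 4.15 FPKM.

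The checkpoint genes were above equality for 4 of 5 in brain (median 0.04) and 5 of 5 in spine (0.11). The brain median came to 0.00 with equal FPKM sums, with 3 of 5 above. Chek1, the kinase that ATR activates at stalled forks (chr9:36708482-36727065, minus strand), stood at 17.0 FPKM in the control and 20.2 in the NTD library of brain, and 15.7 and 18.3 in those of spine. Both NTD libraries lay above both controls. The folds were 1.19 in brain (1.11 to 1.28) and 1.17 in spine (1.08 to 1.26). Atr itself, the kinase that senses exposed single-stranded DNA (chr9:95857597-95951781, plus strand), showed the same order at the lowest level of the 37 genes: 1.26 FPKM in control against 1.43 in NTD brain, with 1.08 in control against 1.37 in NTD spine. On reads (414 to 558) it was 1.14-fold above control in NTD brain (1.004 to 1.28) and 1.27-fold higher in NTD spine (1.12 to 1.45). The spine fold of Atr is above 5:4 on reads and below it on log2(FPKM + 1), since the added 1 weighs on a gene at this level. Clspn, the adaptor between ATR and Chek1, was 1.08-fold higher in NTD spine (1.02 to 1.15) and 1.03-fold in brain with equality inside, at 20.1 to 21.7 FPKM. Atm and Chek2, of the arm that answers double-strand breaks, had folds nearer to equality than Chek1 and Atr in both tissues. This holds for these named genes and not for the arm as a whole. Atm ranged from 3.23 to 3.48 FPKM, with folds of 1.02 in brain and 1.05 in spine. Chek2, its effector, followed the tissue, with 13.4 and 12.7 FPKM in control and NTD brain and 11.04 and 11.2 in control and NTD spine. Equality lay inside both intervals for both genes.

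In end joining, 3 of 4 genes were above equality in each tissue, with medians of 0.15 in brain (0.09 after adjustment for GC content and length) and 0.08 in spine. The exception was Lig4, the ligase of the pathway, at 3.49 to 4.06 FPKM, with equality inside both intervals. The Ku subunits, which bind broken ends, had their low value in a control library. Xrcc6 (Ku70, chr15:81987835-82040085, plus strand) stood at 13.2 FPKM (control) and 16.1 (NTD) in brain, and 14.8 (control) and 15.6 (NTD) in spine, so that control brain stood below the other 3. It was 1.22-fold above control in NTD brain (1.12 to 1.32), and in spine 1.06-fold with equality inside. Xrcc5 (Ku80) stood at 28.1 FPKM in the control and 33.0 in the NTD library of brain, and 27.8 and 31.3 in those of spine, a log2 ratio of 0.22 in brain and 0.17 in spine. Prkdc, which Ku recruits, was 1.09-fold higher in both tissues, with equality inside both intervals. Ercc5 (XPG), the endonuclease that cuts on one side of the lesion in nucleotide excision, was 1.08-fold higher in NTD brain and 1.05-fold higher in NTD spine, at 6.48 to 7.57 FPKM, again with equality inside.

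A test across both tissues was possible only by taking brain and spine as repeats of the NTD contrast. A limma fit with tissue and treatment as terms, which has 1 residual degree of freedom and so leans on the spread pooled over genes, called 0 of 37 repair genes at an adjusted p under 0.05 (Benjamini-Hochberg over 12940 genes), beside 0.147% of all genes. At an unadjusted p under 0.05 it gave 3, all higher in NTD (Blm, Chek1 and Xrcc5), which is 8.11% of the repair genes against 21.9% of all genes. The lowest limma adjusted p was 0.148, for Chek1, with a log2 difference of 0.22 (SE 0.06, 95% interval 0.08 to 0.37) and a higher value in 2 of 2 tissues. For Xrcc5 the log2 difference was 0.19 (SE 0.05, limma adjusted p 0.163) and for Blm 0.20 (SE 0.06, limma adjusted p 0.185). No repair gene's 95% interval in that fit reached past -0.37 or 0.49, short of a 1.5-fold change (0.58 on the log2 scale). These intervals take the disagreement between the tissues as error and do not cover variation between embryos. A batch shared by both NTD libraries would also break the fit, so a 1.5-fold change is not excluded.

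Between the control tissues, repair genes were slightly higher in brain than in spine. The median log2 ratio of control brain to control spine was 0.06, with 28 of 37 above equality (75.7%, against 51.4% of all genes). Smug1 alone passed 5:4 on log2(FPKM + 1), beside 18.2% of all genes. In reads, Smug1 (1.37-fold lower in control brain, 1.22 to 1.55) and Palb2 passed it, beside 24.1%. Counting intervals lay above equality for 8 genes (Ung, Parp1, Msh6, Palb2, Xrcc3, Rpa1, Atr and Chek2, beside 20.0% of all genes) and below it for 4 (Smug1, Brca1, Blm and Xrcc6, beside 19.2%). Palb2 was 1.26-fold higher in control brain (1.11 to 1.44), Chek2 1.22-fold (1.09 to 1.37), Ung 1.16-fold (1.06 to 1.27) and Msh6 1.15-fold (1.10 to 1.21). This comparison and that of NTD spine share the control spine library, which was the lowest of the 4 for 20 repair genes, so their values stand side by side and are not independent. In Msh6, Palb2 and Atr, for example, control spine was lower than both control brain and NTD spine.

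Between the NTD tissues no such lean to brain was seen. The median log2 ratio of NTD brain to NTD spine was 0.01, with 19 of 37 above equality (beside 51.2% of all genes), and with equal FPKM sums it was -0.09, with 5 of 37 above. Smug1 was the 1 gene past 5:4 on both measures (beside 18.9% of all genes on log2(FPKM + 1) and 25.6% in reads), 1.52-fold lower in NTD brain (1.34 to 1.73). Intervals lay above equality for 5 genes (Xrcc1, Rpa1, Rpa2, Chek1 and Chek2, beside 21.3%) and below it for 6 (Smug1, Tdg, Brca1, Rad54l, Blm and Fanci, beside 22.3%). Smug1 and Chek2 thus kept the sign of their tissue difference in control and NTD embryos, as did Brca1, Blm and, except with equal FPKM sums, Rpa1. With equal FPKM sums, intervals lay above equality for 0 genes (beside 10.2% of all genes) and below it for 18 (beside 36.9%).

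The NTD ratio itself was lower in brain than in spine for 25 of 37 genes, beside 50.8% of all genes compared. The median of the brain log2 ratio minus the spine log2 ratio was -0.06, beside -0.003 over all genes. One gene, Palb2, differed by 5:4 or more (log2 -0.39), beside 14.2% of all genes compared. Tdg (-0.31) and Fanci (-0.31) came next, and both were below control in NTD brain and above it in NTD spine. At the other end stood Xrcc6 (0.19) and Pms2 (0.12), whose NTD ratio was larger in brain. With 1 library per group these differences could not be tested.

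The same pathways hold other genes, and 110 of them were listed by role, of which 108 passed the FPKM filter. Their median log2 ratio was 0.01 in NTD brain and 0.02 in NTD spine, with 59 and 61 of 108 above equality. On log2(FPKM + 1), 1 was higher and 3 lower by at least 5:4 in each tissue, beside 14.4% of all genes in brain and 15.3% in spine. In NTD brain Gtf2h2, of the TFIIH helicase complex, was higher and Rmi2 (1.48-fold lower, 1.24 to 1.78), Faap100 and Paxx were lower. In NTD spine Rad50, of the break-sensing MRN complex, was higher (1.29-fold, 1.18 to 1.42), and Ogg1 (1.33-fold lower, 1.09 to 1.61), Faap100 (1.32-fold, 1.17 to 1.50) and Faap20 (1.34-fold, 1.17 to 1.53) were lower. These counts rest on the added 1. In reads, further genes passed 5:4 and were not counted. Among them were Pms1 (1.34-fold higher) and Mpg (1.39-fold lower) in NTD brain. In NTD spine they included Dclre1c (1.42-fold higher) and Paxx (1.28-fold lower). The limma fit over both tissues called 0 of the 108 at an adjusted p under 0.05, beside 0.147% of all genes. At an unadjusted limma p under 0.05 it gave 14, 6 higher and 8 lower. That is 13% of the 108, below the 21.9% of all genes. By role, the other mismatch genes were above equality in spine for 5 of 5, with a log2 ratio of 0.22 for Mlh3 and intervals above equality for 5 of 5, and in brain for 4 of 5, where Mlh3 was lower (-0.18). The other checkpoint genes were above equality for 8 of 16 in brain (median 0.01) and 11 of 16 in spine (0.12). The other Fanconi genes had medians of -0.09 in both tissues, opposite in sign to the first 4, though that of spine was 0.02 after adjustment for GC content and length. Other recombination genes had medians of 0.02 in both tissues, other base excision genes -0.01 and 0.00, other end-joining genes -0.02 in both, and other nucleotide excision genes 0.06 and 0.02.

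Many repair genes, though not all, are known to be expressed with the cell cycle. A list of 22 proliferation and S phase genes (led by Rrm2, Uhrf1 and Mcm5) is therefore given beside the repair genes. Its median log2 ratio was 0.05 in NTD brain and 0.12 in NTD spine, with 17 of 22 above equality in each, and intervals lay above equality for 7 and 13 and below it for 4 and 2. The repair genes thus had a median below that of the proliferation list in both tissues, and both lists had their larger median in spine. Rrm2, a subunit of ribonucleotide reductase, stood at 161 and 173 FPKM in control and NTD brain and 145 and 160 in control and NTD spine. Targets of p53, which the checkpoint kinases activate (17 of 20 compared, led by Gtse1, Ei24 and Bax), had medians of -0.09 in brain (5 of 17 above equality, 2 lower by at least 5:4, Btg2 and Pmaip1, named after their values were seen) and -0.01 in spine (8 of 17 above, 0 past 5:4). Bax, a p53 target that promotes cell death, stood at 17.8 and 17.5 FPKM in control and NTD brain and at 17.0 and 16.9 in control and NTD spine. The part of the cell cycle in the repair gene values was not tested.

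Ratios in these libraries varied with base composition. Over all genes the median log2 ratio fell with GC content from 0.07 in the 10% of genes lowest in GC to -0.15 in the 10% highest in NTD brain, and from 0.06 to -0.17 in NTD spine. The repair genes had a median GC content of 47.1% in the longest transcript, beside 49.9% of all genes, and a median exon length of 5831 bases, beside 4009. After subtracting the median of genes of like GC content and length, the median log2 ratio of the 37 was 0.03 in NTD brain (20 above equality) and 0.07 in NTD spine (29 above). The adjustment turned the sign of 6 genes in brain (Xrcc1, Parp1, Lig3, Brca2, Bard1 and Atm) and of 5 in spine (Xrcc1, Pms2, Xrcc3, Fancm and Atm). Xrcc6 then came to 0.37 in brain, past 5:4. Chek1 stayed above equality at 0.18 and 0.14 in brain and spine, and Blm at 0.18 and 0.17. Palb2 stayed at -0.16 and 0.15.

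**Figure D4:**
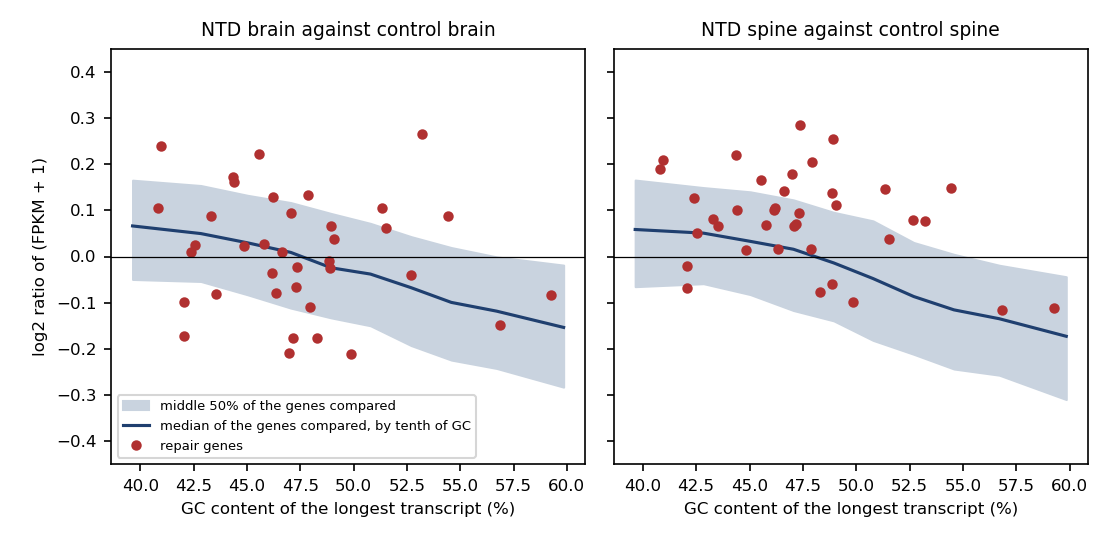
Log2 ratio of (FPKM + 1), NTD over control, against GC content of the longest transcript in brain (left) and spine (right). Red points are the 37 repair genes, the line is the median of all genes compared in each of 10 equal classes of GC content and the band holds the middle 50% of them. The line falls from 0.07 to -0.15 in brain and from 0.06 to -0.17 in spine, and repair genes lie on both sides of it.

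Of the 37 genes, 19 share no exon base with another annotated gene. For 5 the share was at least 10%: Apex1, Lig3 (25.1%, with Rffl), Fanci, Rad54l and Fanca. No label or file header records whether counting used the strand, so reads of these genes and of their neighbours cannot be told apart.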

How the data were processed

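The authors deposited 1 table of FPKM for 28765 genes in 4 libraries. HISAT2 2.0.1 and the mm10 build are named per the submitters' processing notes. For the counting program, the annotation and the strand setting the sources used here give nothing. Identifiers were matched to GENCODE M21 (28698 matched, 67 did not). FPKM times union exon length gave whole reads, within 0.01, for 28298 genes (98.6%). Library totals were 16911677 (control) and 16470311 (NTD) for brain, and 16272101 (control) and 16605133 (NTD) for spine.

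Ratios are log2 of (FPKM + 1), over 12940 genes whose mean reached 1 FPKM; the added 1 understates differences of low genes. Folds named with an interval compare recovered reads, each divided by its library total; the 95% interval is the exact conditional binomial one (Clopper-Pearson) and covers counting error only. Genes were counted past a ratio of 5:4 (0.32 in log2). One limma fit (trended eBayes, two-sided, Benjamini-Hochberg over all genes) used tissue and treatment as terms; its p-values take the difference between the tissues as error. GC and length adjustment subtracted the median of genes in the same of 10 by 10 cells. The steps were tested on simulated data. Promoters come from RefSeq (GRCm38.p6). All 37 repair genes may be named; of other repair gene lists, the highest and lowest member of each NTD comparison and those past 5:4; of other lists, the 3 highest in mean FPKM, and markers at 0. Members, lists and threshold were chosen with earlier results of these data known. Python 3.11.15, pandas 2.3.3, numpy 2.4.6, scipy 1.17.1, matplotlib 3.10.9, R 4.3.3 and limma 3.58.1 were used. Alternatives were pseudocounts of 0.1 and 5, no filter, a mean of at least 5 FPKM, equal FPKM sums, median-ratio scaling, protein-coding genes only, GC and length adjustment, and thresholds of 1.5-fold and 2-fold. Intervals under both scalings, folds of reads past 5:4 and the share of motifs among protein-coding genes were added after the data had been seen.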

Additional observations from a re-analysis of the deposited data

Results flagged for a closer look

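Palb2 was marked because its NTD ratios point in opposite directions in the tissues, with both counting intervals free of equality: 1.20-fold lower in NTD brain (1.05 to 1.36) and 1.17-fold higher in NTD spine (1.02 to 1.34). The brain log2 ratio minus the spine log2 ratio was -0.39. With 1 library per group the difference between the tissues was not tested.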

How the results depend on the processing

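In the NTD comparisons the main measure put 0 repair genes past 5:4. In brain, GC and length adjustment gave 1 higher (Xrcc6). In spine, a pseudocount of 0.1 gave 1 higher, equal FPKM sums 1 (Fanci), and folds of reads 2 (Fanci and Atr). By another rule, an interval that leaves out equality whatever the size of the fold, 6 were higher and 4 lower in brain, and 15 higher and 1 lower in spine. Between control brain and control spine (1 lower), a pseudocount of 0.1 added 1 higher, a pseudocount of 5 and thresholds of 1.5-fold and 2-fold left 0 lower, and intervals without equality gave 8 higher and 4 lower. Between the NTD tissues (1 lower), a pseudocount of 5 and thresholds of 1.5-fold and 2-fold left 0, equal FPKM sums gave 2, and intervals without equality gave 5 higher and 6 lower. For the brain minus spine difference (1 lower, Palb2), a pseudocount of 0.1 gave 3 and equal FPKM sums 4, while a pseudocount of 5, a mean of at least 5 FPKM (28 genes left), GC and length adjustment and thresholds of 1.5-fold and 2-fold gave 0. Genes with an E2F element went from 7 to 4 when only bases before the start were searched. Apart from the intervals, thresholds and fewer genes, whose construction changes the count, the cause was not tested. Under every setting run, medians moved by less than the median distance from a ratio to its interval bound. That distance was 0.14 in NTD brain and 0.15 in NTD spine. It belongs to single genes and is a wide mark for a median over genes, so it cannot show that the medians were stable. The brain median changed sign, from 0.01 to -0.02 with equal FPKM sums. limma called 0 repair genes under every setting, with the lowest adjusted p between 0.0751 (protein-coding genes only) and 0.422 (no filter), and 0 to 528 of all genes. Rescaling moved the median of all genes by at most 0.095 (log2). No paired analysis was possible because each group has 1 library, so groups share fewer than 2 replicate numbers; the limma fit sets NTD against control within each tissue through its tissue term, not through a replicate number. At this depth, counting intervals left out 5:4 for 25 of 36 genes in NTD brain and 27 in NTD spine. The share of all genes was not counted. Repair genes also had more reads (a median of 802 against 536 over all genes), which narrows intervals. These counts are therefore no result about repair genes.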
